A study of Mus musculus with 12 samples.

Results

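The accessible regions named for 9 genes of the NF-κB system were examined in the chromatin of mouse blood cells. These genes included the 5 transcription factor genes Nfkb1, Nfkb2, Rel, Rela and Relb. The other 4, Nfkbia, Nfkbie, Nfkbiz and Tnfaip3, are grouped here as inhibitor genes. A peak was counted for a gene when its annotation gave that gene as the owner of the nearest transcription start site (TSS). By this rule 95 of the 84243 peaks of the list (0.113%) belonged to the 9 genes, among 19040 gene names in all. ATAC-seq had been used to find open chromatin: a transposase enters exposed DNA, and the fragments it tags with adapters are sequenced. The 12 samples were 2 replicates of each of 6 cell types sorted from untreated wild-type C57BL/6 mice aged 8 to 12 weeks. Hematopoietic stem cells (HSCs), megakaryocyte progenitors (MkPs), erythroid progenitors (EPs), granulocyte/macrophages (GMs) and B cells were taken from bone marrow, and the labels give thymus as the source of the T cells. Each cell type was a sorted gate rather than a clonal population: GMs carried both Gr1 and Mac1, EPs were CD71+ with or without Ter119, B cells were B220+ CD43-, and T cells were CD3+ with or without CD4 and CD8. The peaks of the 6 cell types had been merged into a master peak-list of non-overlapping regions, each 499 bp wide. Nothing in it tells which of the cell types contributed a given peak, and there are 0 columns of values per sample. Depth behind a peak is therefore unknown, no value below has an error between replicates, and no test between cell types or replicates was made. Likewise, the sorted cell types could not be checked against accessibility at their marker genes.

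NF-κB is a family of dimeric transcription factors that is kept inactive in the cytoplasm by inhibitors of the IκB family. Signals from receptors of antigens, cytokines and microbial products activate kinases that mark the inhibitors for degradation, and the freed dimers enter the nucleus and bind κB sites in DNA. Rela, Rel and Relb encode subunits with a transactivation domain, whereas Nfkb1 and Nfkb2 encode precursors that are processed to DNA-binding subunits and that hold other subunits back until then. Nfkbia (IκBα) and Nfkbie (IκBε) retain dimers in the cytoplasm, Nfkbiz (IκBζ) acts in the nucleus, and Tnfaip3 (A20) is a ubiquitin-editing enzyme that dampens the signal upstream. Transcription of several of these genes by NF-κB itself is a well known feedback loop. In blood the pathway is best known for its roles in lymphocyte development and survival and in the inflammatory response of myeloid cells.

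A promoter peak, with its centre within 500 bp of a TSS, was listed for 7 of the 9 genes, and each of the 7 had 1 such peak. Over all genes in the list, non-coding genes included, 64.5% had a promoter peak. The exceptions were Nfkbia and Relb, whose nearest peaks lay in the first intron. The remaining 88 peaks were distal, and the peaks were unevenly divided: Nfkb1, Nfkbiz and Tnfaip3 together held 63 of the 95 (66.3%), while Rela and Relb had 2 each. The factor genes had 45 peaks and the inhibitor genes 50. A κB consensus sequence was found in 5 of the 7 promoter peaks, against 9.23% of all promoter peaks in the list, and in 14 of the 88 distal peaks (15.9%), against 6.38% of all non-promoter peaks. Every gene but Relb had at least 1 peak with the consensus.

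The sequences upstream of Rel, Nfkb2, Tnfaip3 and Nfkbia are shown because they carry κB matches close to the TSS, in an open region for the first 3 genes and outside any listed peak for Nfkbia. Each is the 250 bases before a curated RefSeq start of GRCm38.p6 (mm10), written 5′ to 3′ on the strand of the gene, with matches to the κB consensus in capitals. The positions are chr11:23770970-23771219 on the minus strand for Rel, chr19:46304487-46304736 on the plus strand for the most upstream curated start of Nfkb2, chr10:19015411-19015660 on the minus strand for Tnfaip3 and chr12:55492648-55492897 on the minus strand for Nfkbia.
Rel: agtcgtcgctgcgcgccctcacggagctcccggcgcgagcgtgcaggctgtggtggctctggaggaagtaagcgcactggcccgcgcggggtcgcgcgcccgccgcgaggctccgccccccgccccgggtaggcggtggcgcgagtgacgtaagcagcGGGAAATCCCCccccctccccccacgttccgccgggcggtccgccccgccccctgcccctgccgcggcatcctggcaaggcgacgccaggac
Nfkb2: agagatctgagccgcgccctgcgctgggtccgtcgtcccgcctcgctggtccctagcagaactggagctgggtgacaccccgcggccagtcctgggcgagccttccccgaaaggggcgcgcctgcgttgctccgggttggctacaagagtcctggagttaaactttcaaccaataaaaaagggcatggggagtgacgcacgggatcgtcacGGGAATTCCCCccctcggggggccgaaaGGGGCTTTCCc
Tnfaip3: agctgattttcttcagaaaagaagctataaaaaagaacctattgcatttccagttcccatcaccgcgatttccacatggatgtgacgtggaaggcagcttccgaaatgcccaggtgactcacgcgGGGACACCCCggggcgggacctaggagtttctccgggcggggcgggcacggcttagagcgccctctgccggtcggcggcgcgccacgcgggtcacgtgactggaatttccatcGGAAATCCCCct
Nfkbia: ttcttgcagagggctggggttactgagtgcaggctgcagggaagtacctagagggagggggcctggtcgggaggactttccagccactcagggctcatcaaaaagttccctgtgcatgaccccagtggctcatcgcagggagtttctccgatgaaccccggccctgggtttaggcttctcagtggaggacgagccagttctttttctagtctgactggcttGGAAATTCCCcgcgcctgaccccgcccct

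The κB consensus used here is 10 bases long and is named rather than spelled, since several of its positions allow more than 1 base. It was searched without mismatch on both strands, and matches that overlapped were joined into 1 stretch, which is why some capitals run to 11 bases. In Rel the stretch lay 92 to 82 bases before the TSS. In Nfkb2 a stretch lay 39 to 29 bases before the start and a second match 11 to 2 bases before it. Tnfaip3 had a match 125 to 116 bases and another 12 to 3 bases before its start. The match in Nfkbia, at chr12:55492667-55492676, lay 29 to 20 bases before its start. All of these matches but the last were inside a master peak. None of the 250 bases shown for Nfkbia was covered by a peak, and the nearest peak edge was 334 bases from them.

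Further matches in promoter peaks of Nfkb1 and Nfkbie are shown with 10 bases or so on either side, 30 bases in all, on the strand of the gene. The window of Nfkb1 is chr3:135691497-135691526 and lies in the untranslated part of exon 1, 36 bp past the TSS. That of Nfkbie is chr17:45555584-45555613, 102 bp before the TSS.
Nfkb1: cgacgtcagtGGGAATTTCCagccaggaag
Nfkbie: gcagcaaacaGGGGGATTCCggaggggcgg

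The promoter peaks of the factor genes Rela and Rel were both centred close to the TSS. That of Rela, chr19:5637237-5637735, was centred 4 bp upstream of the TSS used in the annotation and 55 bp upstream of the curated RefSeq start. Rel, which encodes c-Rel, a subunit prominent in lymphocytes, had its promoter peak at chr11:23770747-23771245, centred 26 bp upstream of the annotated TSS and 27 bp upstream of the curated start. The promoter peak of Nfkb2, the precursor gene of the non-canonical pathway, was chr19:46304302-46304800 and was centred 186 bp upstream. The promoter peak of Nfkb1, the precursor gene of the canonical pathway, was chr3:135691052-135691550. It was centred 246 bp downstream of the start, so that the TSS lay near the edge of its fixed window. These 4 peaks were rich in G and C, at 72.7% in Rela, 71.9% in Rel, 62.9% in Nfkb2 and 77.0% in Nfkb1. The κB consensus was present in those of Rel, Nfkb2 and Nfkb1 but not in that of Rela.

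Nfkb2 has 3 curated starts, and a second one was also open. It was covered by a peak at chr19:46305351-46305849 that was named for the non-coding gene 4833438C02Rik and therefore did not count among the 5 peaks of Nfkb2. This peak was centred 95 bp from the second Nfkb2 start and 29 bp from the start of 4833438C02Rik, and it held 2 κB matches. The third start lay 81 bp beyond the edge of the nearest peak.

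Relb, the partner of the Nfkb2 product in the non-canonical pathway, had no peak over its curated start. The nearest peak, chr7:19628596-19629094, was centred 593 bp downstream in intron 1 of 10, and its edge was 344 bp from the TSS. It had no κB match and was centred 51 bp from a predicted RefSeq start of Relb. The other peak of Relb, 10.2 kb downstream in intron 3, had no κB match either. A further peak in the Relb gene body was named for the neighbouring gene Clasrp and was likewise without a match.

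Among the inhibitor genes, Nfkbie had the best centred promoter peak. It lay at chr17:45555454-45555952 and was centred 3 bp downstream of the TSS. The promoter peak of Tnfaip3 lay at chr10:19015116-19015614 and was centred 45 bp downstream. It covered the more upstream of the curated starts, while the other was 2146 bp from the nearest peak edge. Nfkbiz also has 2 curated starts. Its promoter peak, chr16:55821998-55822496, was centred 109 bp upstream of the inner start. The outer curated start, which belongs to the longer transcripts, was not covered: the nearest peak, chr16:55838897-55839395, was centred 505 bp upstream, just outside the limit for promoter peaks, with its edge 256 bp from the start. The deposited annotation nevertheless classed that peak as promoter of Nfkbiz, and it was centred 247 bp from a GENCODE start of the gene. Neither of these Nfkbiz peaks held the κB consensus.

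Nfkbia, whose product is resynthesized quickly after NF-κB activation, had 10 peaks but none over its TSS. The nearest, chr12:55491816-55492314, was centred 582 bp downstream in intron 1 of 5. It was the most GC-rich of the 95 peaks, at 78.2%, lay on a low-complexity stretch and held a κB match. Its edge was 333 bp from the start. Since every region was 499 bp wide, a distance to an edge is one to a fixed window and not to where accessibility ended. The authors filtered the peaks and kept 1 of any that overlapped. The paper counts more promoter peaks in HSCs alone than the master list holds. A start without a listed peak was therefore not shown to be closed. Outside the 500 bp limit the nearest were thus peaks of Nfkbiz, Nfkbia and Relb and a peak of Rel 765 bp downstream of its TSS. Inside it the farthest from a TSS was that of Nfkb1, at 246 bp, so no promoter peak lay close to the limit.

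**Figure D1:**
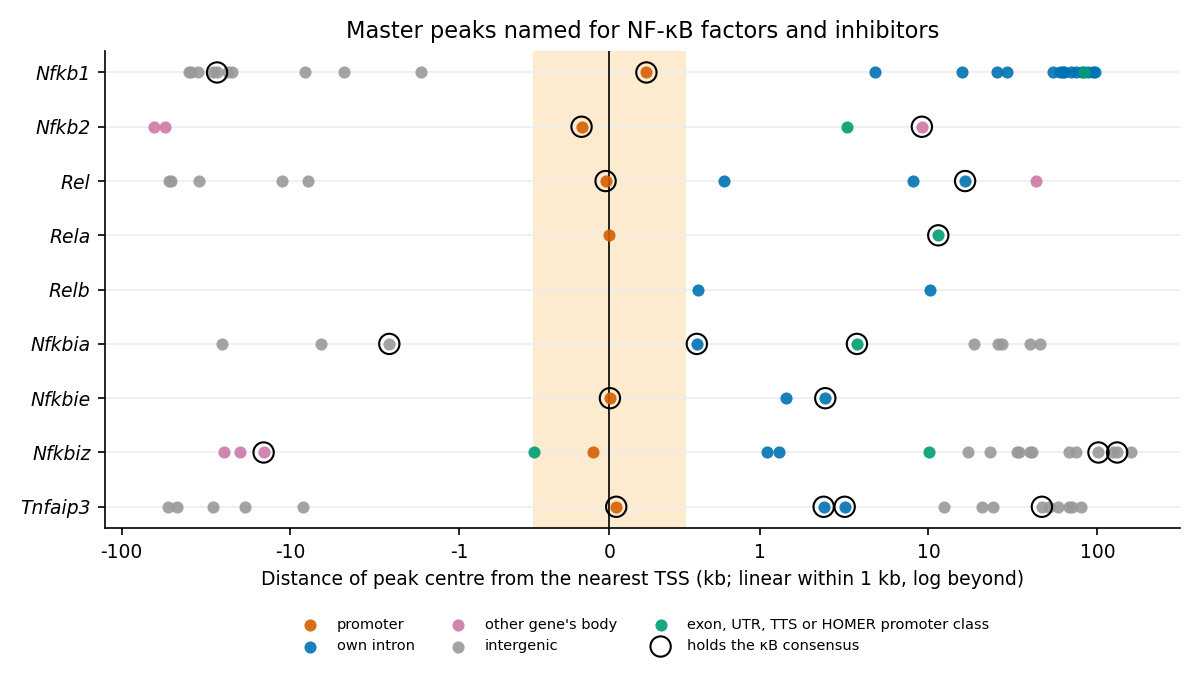
Signed distance of each of the 95 peak centres from the nearest TSS, in kb, for each gene (negative values are upstream; the axis is linear within 1 kb and logarithmic beyond; the shaded band is the 500 bp limit for promoter peaks). Colour gives the annotation of the peak and a black ring marks the 19 peaks with the κB consensus, among them 5 of the 7 promoter peaks, while Nfkbia and Relb have no point in the band.

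Distal peaks of the factor genes differed in number and place. Nfkb1 had 25, of which 14 were in its own introns and 10 were intergenic and upstream. The other was in exon 13 of 25. Upstream peaks ran from 1.7 to 40.0 kb before the TSS, and those in the gene body reached 97.1 kb past it, into intron 18 of 24. Together with the promoter peak they spanned 138 kb around a gene of 107.3 kb. An additional peak in intron 24 was named for the adjacent gene Manba. Of the 25 distal peaks of Nfkb1, 1 held the κB consensus, 27.2 kb upstream.

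Rel had 9 distal peaks, 5 of them intergenic and upstream, from 7.9 to 52.5 kb away. By GENCODE starts, all 5 were nearer to the non-coding gene Gm23827 than to Rel. Another 3 were in introns of Rel, at 0.8, 8.1 and 16.5 kb downstream. The farthest of these, in intron 3 of 9, held the κB consensus. The remaining peak lay 43.1 kb downstream in intron 16 of Pus10. Nfkb2 had 4 distal peaks, 3 of them inside other genes: at 64.3 and 55.4 kb upstream in introns 3 and 4 of Gbf1, and at 9.1 kb downstream in intron 12 of Psd. The peak in Psd held the consensus. The fourth was in exon 14 of Nfkb2, 3.3 kb downstream. Rela had a single distal peak, 11.4 kb downstream at the transcription termination site, and it held the consensus.

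Distal peaks of the inhibitor genes were mostly intergenic. Tnfaip3 had 16, with 14 intergenic and 2 in intron 1 of 7. They stretched from 53.1 kb upstream to 80.3 kb downstream. Those 53.1, 46.9 and 28.6 kb upstream lay nearer to the curated start of the non-coding gene Gm51814. The one 46.9 kb upstream was centred 430 bp from that start. The intronic peaks of Tnfaip3, 2395 and 3190 bp downstream of the nearest start, both held the κB consensus, as did an intergenic peak 46.9 kb downstream. Nfkbiz had 19 distal peaks over 200 kb. Of these, 12 were intergenic, 2 were in its own introns, 1 was in its 3′ untranslated region, and 3 were upstream in introns 3 and 4 of Nxpe3. The last was the peak 505 bp before the longer transcripts. All 4 of the peaks of the 9 genes beyond 100 kb were named for Nfkbiz, the farthest 158.0 kb downstream, on the side where the next TSS of a coding gene, that of Zpld1, is 539 kb away. Its κB matches lay 14.4 kb upstream and 101.5 and 130.9 kb downstream.

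Nfkbia had 10 distal peaks within 45.5 kb of its TSS, 8 of them intergenic. The peaks 2599 bp upstream, 582 bp downstream and 3770 bp downstream each held the κB consensus, so that matches fell in the 3 peaks nearest to the gene and in none of the 7 farther away. The peak 2599 bp upstream was also 173 bp from a predicted RefSeq start of the non-coding gene Gm36634. By GENCODE starts, this peak and those 6.6 and 25.5 kb upstream were nearer to Gm36634 than to Nfkbia. Some distal peaks of Nfkb1, Nfkb2, Nfkbiz and Tnfaip3 were likewise nearer to a GENCODE start of another gene. Nfkbie had 2 distal peaks, both in intron 1 of 5. The one 2449 bp downstream held 2 matches and the one 1443 bp downstream held none.

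The distal matches are given below in 30-base windows on the strand of the gene, with the consensus in capitals. They lie in 14 peaks of 8 genes, and their sequences are not all the same. Windows are from mm10, with the gene and the distance of the peak centre from the TSS before each.
Nfkb1, peak 27220 bp upstream, chr3:135718530-135718559: ttgagagaagGGGGAGCCCCtccctcatac
Nfkb2, peak 9137 bp downstream, chr19:46314964-46314993: agagctacctGGGGCTCCCCtccccgcacc
Rel, peak 16476 bp downstream, chr11:23754408-23754437: atggtggtagGGGAGTTCCCCcatcatcat
Rela, peak 11427 bp downstream, chr19:5648936-5648965: ctaagcggtgGGGAAACCCCtatgctgaga
Nfkbia, peak 2599 bp upstream, chr12:55495345-55495374: gtaactcctaGGGAATTCCCagggagggcc
Nfkbia, peak 582 bp downstream, chr12:55491947-55491976: ggtggggcacGGAAAGTCCCtgggcggctg
Nfkbia, peak 3770 bp downstream, chr12:55488821-55488850: agcttgtgcgGGGACACCCCgagaggaagc
Nfkbie, peak 2449 bp downstream, chr17:45558046-45558075: tgagtcgctgGGGGAACCCCacatcggcct
Nfkbie, peak 2449 bp downstream, chr17:45558109-45558138: gctcagccctGGAAACCCCCtctgtgtttc
Nfkbiz, peak 14424 bp upstream, chr16:55853118-55853147: cgtagtacatGGGAAACCCCaaaatacact
Nfkbiz, peak 101500 bp downstream, chr16:55720709-55720738: tgttgttactGGGGCATCCCctggcaagat
Nfkbiz, peak 130912 bp downstream, chr16:55691243-55691272: caacacatttGGGGAACTCCagagactgaa
Tnfaip3, peak 2395 bp downstream, chr10:19009421-19009450: tcttcgcactGGGGAATTCCacatgttact
Tnfaip3, peak 3190 bp downstream, chr10:19008826-19008855: agctaggagaGGAAAATCCCaggtccccac
Tnfaip3, peak 46945 bp downstream, chr10:18965078-18965107: ttttgaaagtGGAAATCCCCgttttcgccg

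Over promoter and distal peaks together, the 9 genes had 25 matches in 22 stretches. When a stretch and its reverse complement were counted as 1 sequence, 4 sequences occurred 2 times each and the other 14 occurred a single time. The matches were centred a median of 85.5 bp from the middle of the peak, against 110 bp for all 6685 matches in the list. There were 5 peaks with 2 or more matches, namely the promoter peaks of Nfkb2, Rel and Tnfaip3 and the distal peaks of Rel at 16.5 kb and of Nfkbie at 2449 bp. Matches in Rel overlapped each other and were thus 1 stretch on the DNA.

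**Figure D2:**
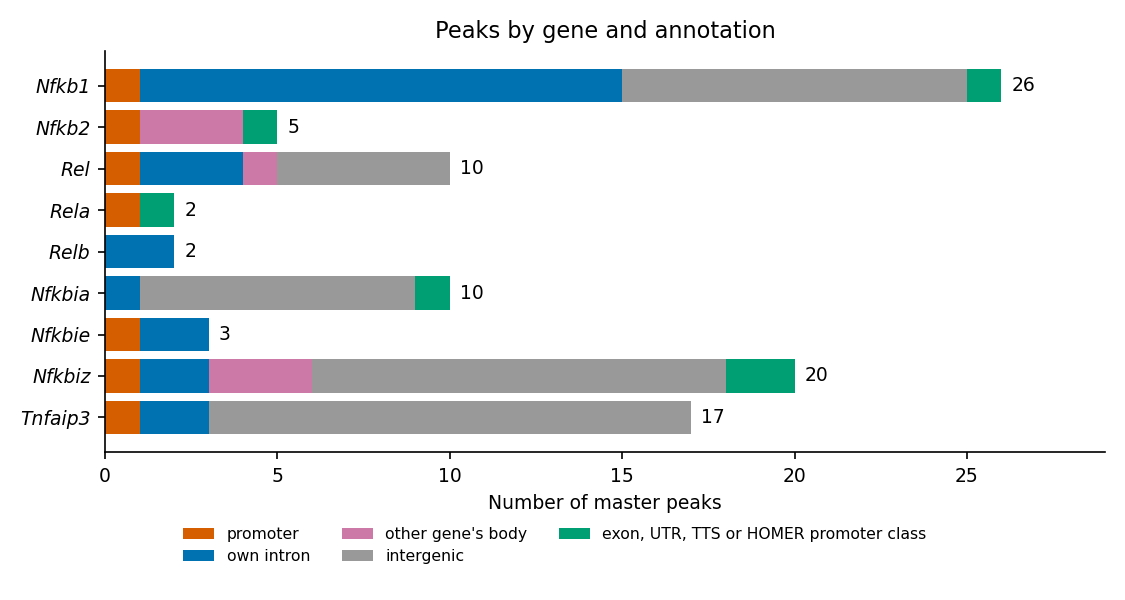
Number of master peaks of each gene, stacked by annotation (bars start at 0; the total stands at the end of each bar). Nfkb1 has 14 peaks in its own introns, whereas 14 of the 17 peaks of Tnfaip3 and 12 of the 20 of Nfkbiz are intergenic.

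Counts per gene were set beside those of all 19040 named genes, whose median was 3 peaks. The 9 genes had a median of 10. At least as many peaks as Nfkb1, with 26, were found in 0.835% of genes. The share was 1.92% for the 20 peaks of Nfkbiz, 3.06% for the 17 of Tnfaip3 and 10.5% for the 10 of Rel and of Nfkbia. It rose to 31.8% for Nfkb2 and 54.9% for Nfkbie, and to 74.6% for the 2 peaks of Rela and of Relb. A gene with few neighbours collects more peaks under a nearest-TSS rule. Among coding genes only, the starts next to that of Tnfaip3 are those of Olig3, 341 kb away, and Perp, 167 kb away. The curated start of the non-coding gene Gm51814 lies between those of Tnfaip3 and Olig3. The starts of the coding genes Tmem151b and Slc35b2 are 6.02 and 8.24 kb from that of Nfkbie.

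**Figure D3:**
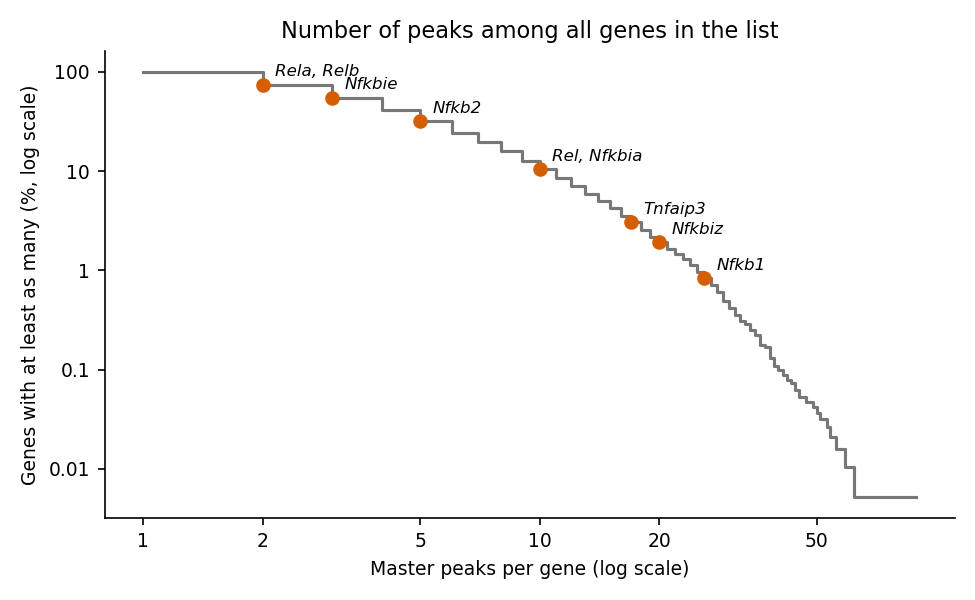
Share of all named genes with at least a given number of master peaks, in percent, against that number (both axes logarithmic; grey line, all genes; orange points, the 9 genes). Nfkb1 lies at 26 peaks and 0.835% of genes, and Rela and Relb at 2 peaks and 74.6%.

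Peaks were therefore also counted over the sequence nearer to a gene's curated RefSeq starts than to those of any other gene, which is called its territory here. By density, Nfkbie came first among the 9 genes, with 42.1 peaks per 100 kb in a territory of 7.13 kb, and 0.808% of genes were at least as dense. Nfkb1 had 15.3 per 100 kb over 170 kb, Tnfaip3 12.7, Nfkbia 12.0, Nfkbiz 9.59 and Rel 8.72. Rela (7.46), Relb (6.61) and Nfkb2 (5.73) were close to the median of 6.33 over all 19680 genes with a peak in a territory of at least 1 kb. Density falls with the size of the territory in the whole list, so each gene was also set beside genes with a territory of like size. Only genes with a peak entered these groups, and 6 of the 9 genes had more peaks than the upper quartile of their group. The share of all genes above the upper quartile of their own group is not given here. Nfkb1 had 26 against a median of 6.00 and Nfkbiz 20 against the same median, with an upper quartile of 11. Tnfaip3 had 14 by this count, without the upstream peaks nearer to Gm51814, and Rel 10, against a median of 5.00. Nfkbia had 10 against 4.00, and Nfkbie 3 against 1.00. Nfkb2, Rela and Relb did not exceed the upper quartile.

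**Figure D4:**
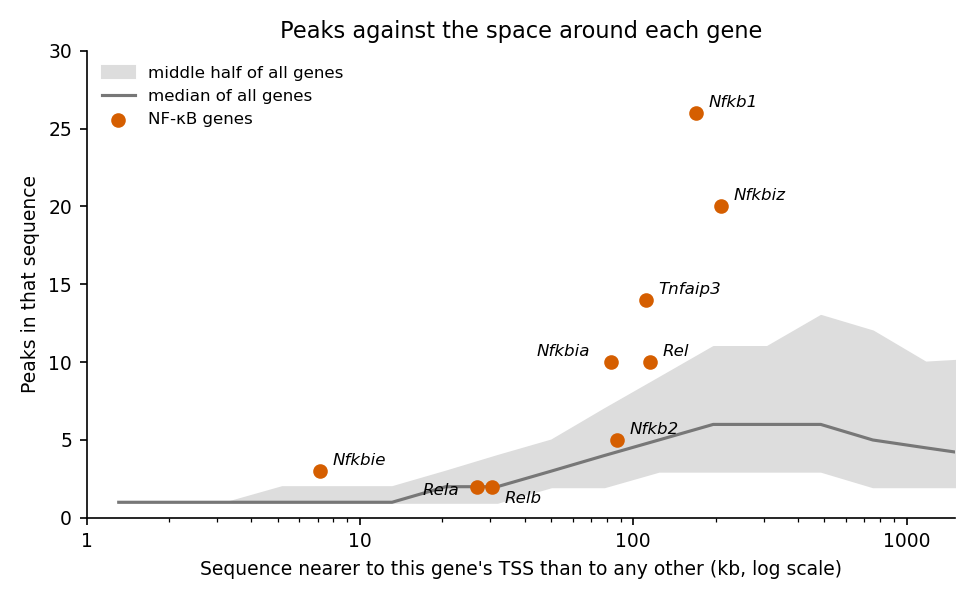
Peaks in the territory of each gene against its size in kb (logarithmic axis), for the 9 genes (orange) and as median (line) and interquartile range (band) of all genes with a peak, grouped by size. Nfkb1, Nfkbiz, Tnfaip3, Nfkbia, Rel and Nfkbie lie above the band, and Nfkb2, Rela and Relb within it.

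The κB share of the promoter peaks was looked at in other ways. Among promoter peaks with at least 60% G and C, to which all 7 belonged, 10.0% held the consensus. Among non-promoter peaks this rich in G and C the share was 13.3%, and 2 of the 4 such peaks of the 9 genes had a match. With the looser form of the consensus 5 of the 7 and 17 of the 88 distal peaks matched, against 18.3% and 10.2% in the list. Within the central 200 bp, matches remained in 2 of 7 promoter peaks and 10 of 88 distal peaks, against 3.36% and 3.01%. With 1 mismatch all 7 promoter peaks matched, beside 73.1% of all promoter peaks, and 58 of 88 distal peaks matched, beside 55.4%. As a count that does not start from the peak list, 300-base RefSeq windows from 250 bases before to 50 bases after a start were available for 6 of the 9 genes (Nfkb2, Rel, Rela, Nfkbia, Nfkbie and Tnfaip3). Of their 9 windows, 7 held the consensus, against 4.51% of all windows, and 5 of the 6 genes had it in at least 1, against 5.14% of 27025 genes. Rela was again the exception. Nfkb2 gave a window for each of its 3 curated starts, and the match at chr19:46305705-46305714 was counted in overlapping windows of this gene. Apart from the match of Nfkbia these matches lay in listed peaks, and those of Rel, Tnfaip3, Nfkbie and the most upstream Nfkb2 start are the sites already counted above, so the windows are no separate evidence. A match is a run of letters and not a bound site, and binding was not measured.

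Strings for other factors active in blood were counted in the same way on both strands. They were GAGGAAG for PU.1, a factor of myeloid and B cells, AACCACA for RUNX, AGATAA for GATA factors, TGANTCA for AP-1, CAGCTG for E-box proteins, and a CTCF consensus, named only because some of its positions allow several bases. In promoter peaks, PU.1 was found in 2 of 7 (Nfkb2 and Rel), against 22.1% in the list. AP-1 was found in 3 of 7 (Rel, Nfkbie and Tnfaip3), against 6.80%. The E-box was found in 1 of 7 (Nfkbie), against 26.1%. RUNX, GATA and CTCF were found in 0 of 7, where the list had 5.88%, 8.66% and 1.99%. With 7 peaks, a share of this size rests on single genes.

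In the 88 distal peaks the PU.1 string was found in 26 (29.5%), beside 28.5% of all non-promoter peaks. For RUNX there were 17 (19.3%) beside 18.0%, and for AP-1 16 (18.2%) beside 16.9%. These shares lay within 2 percentage points of the list. GATA was found in 18 (20.5%) beside 26.9%, the E-box in 21 (23.9%) beside 30.4%, and CTCF in 4 (4.55%) beside 8.74%. Of the 18 peaks with the GATA string, 6 were in Nfkb1, 5 in Nfkbiz and 5 in Tnfaip3. The PU.1 string was in 6 distal peaks each of Nfkb1 and Nfkbiz and in 5 of Tnfaip3. Of the 95 peaks, 21 held none of the 7 strings and 39 held 2 or more. The most was 4, in the peaks of Nfkbiz 34.2 kb downstream (PU.1, RUNX, GATA and AP-1) and 101.5 kb downstream (κB, PU.1, GATA and AP-1).

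**Figure D5:**
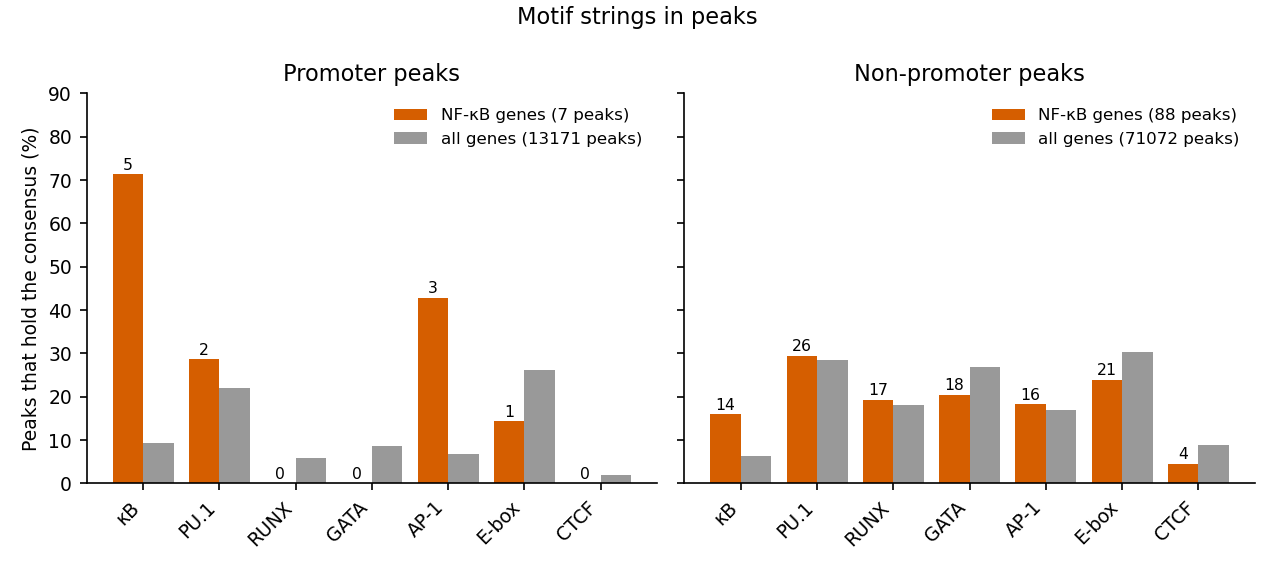
Share of peaks with each consensus string, in percent, for the 9 genes (orange, with the number of peaks above each bar) and for the whole list (grey), for promoter peaks on the left and non-promoter peaks on the right. The κB bars stand at 71.4% against 9.23% and at 15.9% against 6.38%, and the orange bars on the left rest on 7 peaks.

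The distal peaks of the 9 genes were compared with all non-promoter peaks in other respects. Intergenic peaks were 49 of 88 (55.7%) beside 44.6%, and intronic peaks 33 (37.5%) beside 48.0%. Of the intronic peaks, 26 were in the gene's own introns and 7 in Gbf1, Psd, Pus10 or Nxpe3. Peaks upstream of the TSS were 29 of 88 (33.0%) beside 41.7%. The median distance from the TSS was 27169 bp, against 22261 bp. With predicted RefSeq models included, 5 of the 88 lay within 500 bp of a start of some gene. A repeat was given as the annotation of 10 peaks (11.4%), against 17.9%, and 5 of these were LTR elements, in Tnfaip3, Nfkbiz and Nfkbia. The median content of G and C was 45.2% against 47.7% in distal peaks, and 71.5% against 63.3% in promoter peaks. Within 1 kb of another peak were 9 of the 88 (10.2%), beside 12.3%. None of these differences was tested, since peaks of the same gene are not independent.

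Other genes of the pathway were counted from a list of 28 with no member among the 9. Of these, 27 had a peak and 26 had a promoter peak, beside the 64.5% of all genes in the list. That share covers only genes with a peak and includes non-coding genes, so the comparison is not like for like. The 200 peaks were 28 promoter and 172 distal peaks, with a median of 5.00 per gene. The 8 genes of kinases and of the TAK1 partners Tab1, Tab2 and Tab3 had 83 peaks, and all 8 had a promoter peak. They include Chuk, Ikbkb and Ikbkg, the subunits of the kinase that phosphorylates IκB proteins, with 2, 5 and 5 peaks. Map3k7, which encodes the kinase TAK1 upstream of it, had the most of the 28 genes, with 30. Tab2, an adaptor and no kinase, had 21. The 12 genes of receptor-side adaptors and ubiquitin ligases and of their partners had 78 peaks. Tradd had 0 by name, although a peak named for Fbxl8 was centred 41 bp from its TSS, and Ripk1 had 1 distal peak only.

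The κB consensus was found in 9 of the 28 promoter peaks of these genes (32.1%, beside the same 9.23%) and in 18 of their 172 distal peaks (10.5%, beside 6.38%). Of the other IκB genes, Nfkbib, Nfkbid and Bcl3 each had a promoter peak with a match, 3 of 4 promoter peaks in all. Bcl3, a nuclear IκB protein, also had matches in 3 of 5 distal peaks. The group of kinases and TAK1 partners had a match in 1 of 8 promoter peaks, that of Map3k7. Among the other brakes on the pathway, 2 of 5 promoter peaks had one, those of the deubiquitinase gene Cyld and of Tnip1, which encodes a partner of A20. The 12 adaptor and ligase genes had it in 3 of 11, in Traf3, Birc3 and Bcl10. The inhibitor genes among the 9 members thus had it in 2 of 3 promoter peaks, the factor genes in 3 of 4, and the kinases with the TAK1 partners in 1 of 8, and these small counts were not tested against each other.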

How the data were processed

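ATAC-seq was performed on 12 samples, 2 of each of 6 sorted cell types. Reads had been aligned to mm10 and peaks called by the authors through the pipeline of ENCODE. The optimal lists of the cell types were joined. The peaks were then filtered with chromVAR at default settings and without overlaps, which the paper describes as keeping the most significant ones. HOMER, listed as 4.10.2 per the labels, gave the annotation. Peak positions and TSS distances were used as deposited, in bp, with no normalization. The deposited score column held 0 throughout and was not used. Depth per sample is unknown.

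Peaks were given to genes by the deposited gene name and called promoter peaks within 500 bp of the TSS. Sequence and gene models were from NCBI RefSeq, annotation release 108 of GRCm38.p6. A territory was counted as the bases nearest to a gene's curated starts. Like sizes of territory were bins of equal width on a log scale. Motifs were searched as strings over the full peak on either strand, and the search found 200 of 200 sites planted in simulated sequences. The 9 genes, the pathway list and the motifs were chosen with earlier results of these data known. The genes named were the 9 genes with each promoter peak, nearest and farthest distal peak and peak with κB consensus, the genes that host or neighbour their peaks, and pathway genes with the most and fewest peaks. Of the pathway genes under this rule, 1 is not named here. Other pathway genes were named after their values were seen. No test was made, and counts are set beside those over all genes or peaks. The scripts ran under Python 3.11.15 with pandas 2.3.3, numpy 2.4.6 and matplotlib 3.10.9.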

Additional observations from a re-analysis of the deposited data

How the results depend on the processing

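The 7 promoter peaks in 7 genes became 4 in 4 genes when the limit was 100 bp, and 11 peaks when it was 1000 bp, which then reached all 9 genes. The 95 peaks of the 9 genes became 44 when only the gene body and the 5 kb before it counted, and 162 under the basal plus extension rule, where a peak can belong to several genes. The 19 peaks with the κB consensus became 65 with 1 mismatch and 12 in the central 200 bp. The 3 genes among the top 5% by number of peaks became 1 by peaks per 100 kb, Nfkbie in place of Nfkb1, Nfkbiz and Tnfaip3. These shifts follow from how each alternative was defined. Of 36 alternatives for single genes, 14 moved the count by over 1.5 times, 9 of them to a lower count. Tnfaip3 moved most often, between 3 and 42 peaks.

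Promoter alternatives added after seeing the data gave 8 peaks in 7 genes with GENCODE starts, which add the Nfkbiz peak 505 bp upstream. They gave 9 in 8 with predicted RefSeq models, which also add Relb, and 7 in 7 where a peak had to cover a curated start. The grouping by territory size and the 60% limit on G and C were also chosen after seeing the data. A stricter score threshold was not run because each score was 0. No paired analysis was possible because the list holds no value per sample and therefore no replicate to leave out.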
